A study of Mus musculus with 6 samples.

Results

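Skeletal muscle genes of mouse dorsal skin are described here through 42 genes of mature muscle fibres, which encode the contractile filaments, the Z disc, the calcium release and uptake machinery and the enzymes that supply energy. The genes were chosen by symbol, and all 42 were found among the 55487 genes of the deposited count table. Of these, 38 had enough reads to be among the 17988 genes tested. The study sequenced polyadenylated RNA from whole dorsal skin at day 2 in 3 libraries of skin given DPCP with clodrosome and 3 libraries of skin given DPCP with encapsome. DPCP is diphenylcyclopropenone, a contact sensitiser, and it was given in both groups, so no library here shows skin without it. Clodrosome (spelled Codrosome in the sample labels) is a suspension of clodronate liposomes, which kill the phagocytes that take them up, and encapsome is the same kind of liposome without the drug. By its title, the study asked about macrophages in hair regeneration that follows contact hypersensitivity. Strain, sex, age, number of animals and route of injection are not given in the sources used here, and the labels do not say that the libraries came from separate animals, so a p-value reflects library-to-library spread, which may be technical.

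A striated muscle fibre shortens when myosin heads of the thick filament pull on actin of the thin filament, after calcium released from the sarcoplasmic reticulum binds troponin. Fast and slow fibres carry different forms of myosin, troponin and calcium pump, and fast fibres rely more on glycogen and phosphocreatine. In mouse skin the main source of such fibres is the panniculus carnosus, a thin sheet of mostly fast striated muscle under the dermis and its fat.

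The muscle genes were higher with clodrosome as a group. Of the 38 tested members, 23 rose (edgeR adjusted p under 0.05 over all tested genes), 0 fell and 15 did not pass. Among all 17988 tested genes, 9.41% were called higher, 13.0% lower and 22.4% in either direction. All 38 tested members had a positive log2 fold change of clodrosome over encapsome, so 0 were lower at an unadjusted p under 0.05 or by DESeq2, which called 26 higher. Their median log2 fold change was 0.54 with a range of 0.14 to 1.38, beside a median of 0.01 over all tested genes. The sizes were moderate, and only 3 members, Tnni1, Sln and Myh2, reached a log2 fold change of 1. Without clodrosome C, encapsome A or encapsome B the number called became 12, 14 or 13, and 12 members kept their call whichever library was left out, namely Acta1, Des, Mybpc1, Mybpc2, Myh2, Ryr1, Sln, Tcap, Tnni1, Tnni2, Tpm1 and Tpm2.

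Values are given as CPM (each library's counts brought to the same total after TMM scaling), always in the order of libraries A, B and C of a group. The letters follow column order and pair no libraries. The 42 members together held 10560.2, 9747 and 13290.2 CPM in the clodrosome libraries, against 6661, 7055 and 8212 CPM in the encapsome libraries. Every clodrosome library thus lay above every encapsome library, with means of 11199 ± 1856 CPM with clodrosome and 7309 ± 806 CPM with encapsome (SD, n = 3 each) and a ratio of means of 1.53. Clodrosome C was the highest clodrosome library for all 38 tested members and the highest of the 6 libraries for 37. Encapsome A was the lowest of the 6 for 26 members. In 26 of the 38 members all clodrosome libraries exceeded all encapsome libraries, which held for 19.5% of all tested genes in that direction. Whole skin is a bulk sample and CPM is relative to each library's total, so higher CPM need not mean more muscle RNA in the skin. More muscle cells in the piece of skin, more RNA of these genes per muscle cell and less RNA from other cells cannot be told apart.

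**Figure D1:**
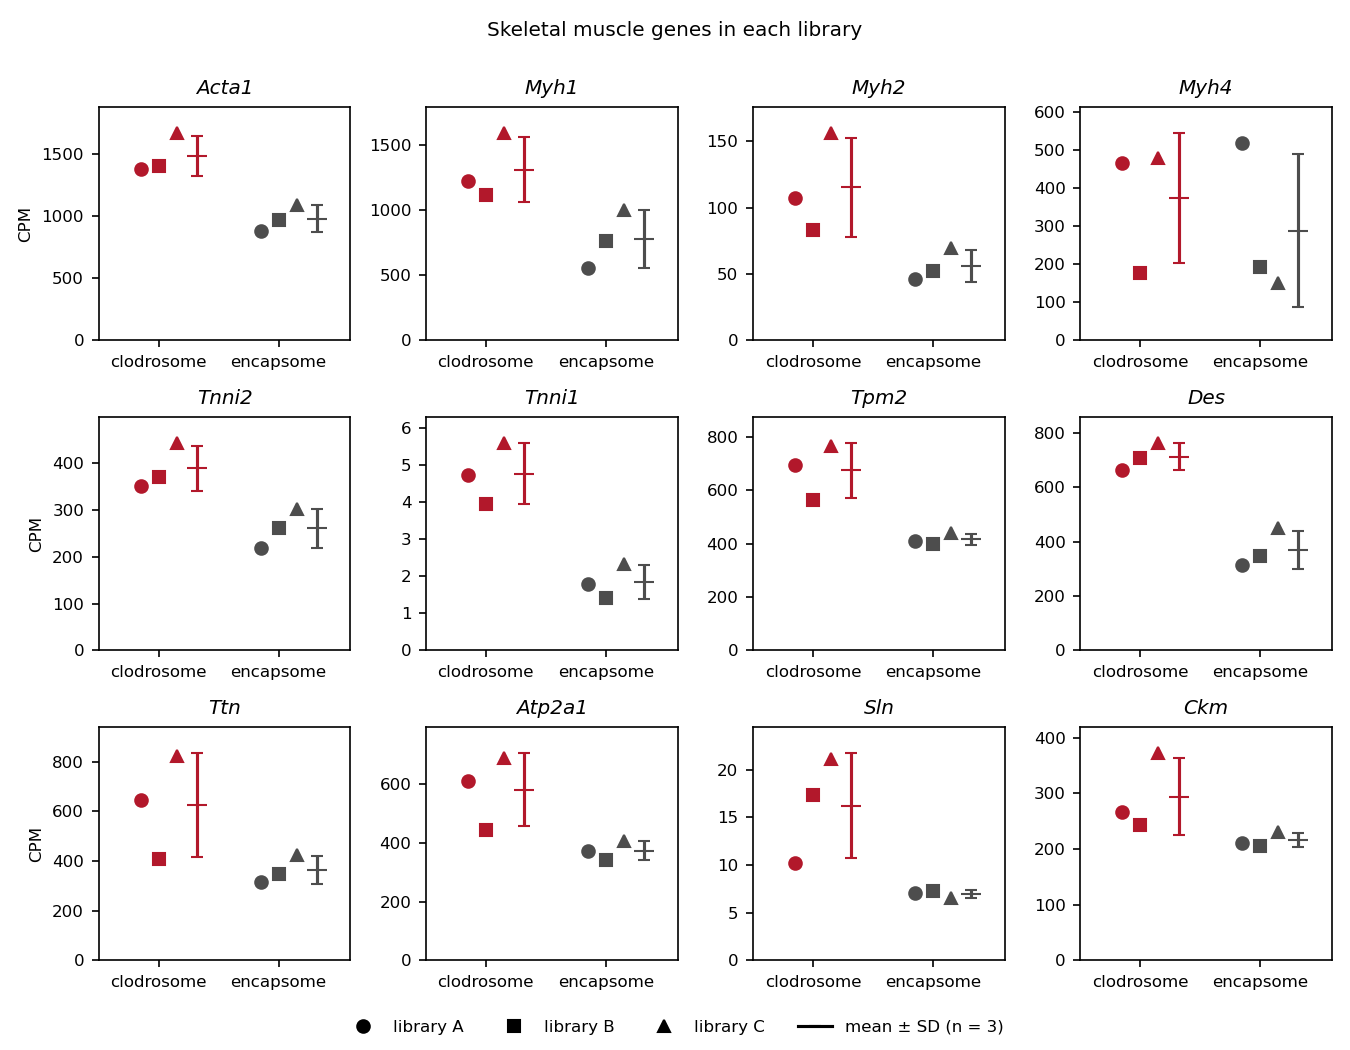
CPM of 12 muscle genes in each of the 6 libraries, clodrosome in red on the left and encapsome in grey on the right of each panel, with marker shapes for libraries A, B and C and bars for the mean ± SD (n = 3). For Acta1 the clodrosome libraries lie between 1378 and 1670.4 CPM and the encapsome libraries between 878 and 1093 CPM, and Myh4 is the one panel where an encapsome library is the highest.

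Depth ranged from 26649396 to 116965654 counts per library, the deepest being clodrosome A, and the members took 0.968% to 1.35% of the counts with clodrosome and 0.654% to 0.810% with encapsome. The first principal component separated the groups (53.8% of the variance). The next, with 14.5%, gave positive scores to clodrosome A and C (13.7 and 21.8) and encapsome A (17.0), and negative scores to clodrosome B (-28.3) and to encapsome B and C (-9.22 and -14.96), and the labels name no batch. All 6 macrophage markers fell with clodrosome, with a median log2 fold change of -1.87, beside 13.0% of all tested genes called lower.

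In the thick filament, 5 of the 7 tested genes rose, among them the heavy chains Myh1 and Myh2 and both myosin-binding proteins, with a median log2 fold change of 0.76 over the 7. The heavy chains are the motors themselves. Myh4 encodes the fastest chain (type 2B), Myh1 the chain of type 2X fibres, Myh2 that of type 2A fibres and Myh7 that of slow fibres. Myh1 had the highest level per kilobase of the 4, with 1227, 1118 and 1596 CPM in the clodrosome libraries, against 560.2, 766 and 1006 CPM in the encapsome libraries. Its libraries did not overlap between groups, and its log2 fold change was 0.76 ± 0.204 (edgeR adjusted p = 0.0273). Myh2 was lower per kilobase, with 107, 83.1 and 156 CPM in the clodrosome libraries, against 46.5, 52.1 and 69.5 CPM in the encapsome libraries. Again no encapsome library reached a clodrosome library. The log2 fold change of 1.05 ± 0.220 had an edgeR adjusted p of 0.00911. Myh4 did not separate the groups, at 467, 179 and 481 CPM in the clodrosome libraries, against 521, 194 and 152 CPM in the encapsome libraries. Clodrosome A, clodrosome C and encapsome A were high and the other 3 libraries low for Myh4, the same division as on the second principal component, and its log2 fold change was 0.38 ± 0.471 (edgeR adjusted p = 0.613). Myh7 was almost absent, with 0, 5 and 2 counts in the clodrosome libraries, against 0, 2 and 0 counts in the encapsome libraries. A count of 0 allows up to 0.0502 CPM in clodrosome A and 0.166 to 0.228 CPM in the other libraries (3 fragments taken as 6 counts, counting error only), so Myh7 has no usable fold.

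Myh2, Myh1 and Myh4 are neighbouring protein-coding genes on the plus strand of chromosome 11, at chr11:67171027-67197517, chr11:67200052-67224575 and chr11:67238029-67260446 in GRCm38, and reads were counted over their exons. Their coding sequences are closely alike, and reads that map to several places were not counted, so their levels are less certain than those of single-copy genes. Their promoters are shown because the 3 genes lie side by side while Myh1 and Myh2 rose and Myh4 did not pass, a contrast that was not itself tested. Each line holds the 250 bases before and 50 bases after the RefSeq start (GRCm38.p6, plus strand), with capitals on matches to TATAAA and to the MEF2 pattern, the motif bound by the myocyte enhancer factor 2 proteins, searched on both strands.
Myh2, chr11:67170777-67171076: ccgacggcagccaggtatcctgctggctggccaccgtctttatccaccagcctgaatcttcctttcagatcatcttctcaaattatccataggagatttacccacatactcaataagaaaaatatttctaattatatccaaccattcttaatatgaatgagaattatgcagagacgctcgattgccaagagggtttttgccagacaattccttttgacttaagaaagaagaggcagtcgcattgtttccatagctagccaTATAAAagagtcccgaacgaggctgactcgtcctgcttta
Myh1, chr11:67199852-67200151: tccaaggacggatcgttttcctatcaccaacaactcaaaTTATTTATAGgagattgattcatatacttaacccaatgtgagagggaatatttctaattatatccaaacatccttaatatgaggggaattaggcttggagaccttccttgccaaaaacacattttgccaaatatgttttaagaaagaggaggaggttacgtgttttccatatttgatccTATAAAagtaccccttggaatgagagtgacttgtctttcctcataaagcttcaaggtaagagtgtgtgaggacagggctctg
Myh4, chr11:67237562-67237861: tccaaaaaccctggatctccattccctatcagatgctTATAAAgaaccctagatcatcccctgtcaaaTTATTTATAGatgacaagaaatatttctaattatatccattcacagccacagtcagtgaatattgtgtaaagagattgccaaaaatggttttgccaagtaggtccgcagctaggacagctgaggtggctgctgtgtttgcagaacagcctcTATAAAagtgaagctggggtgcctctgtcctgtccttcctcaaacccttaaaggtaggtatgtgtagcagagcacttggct
Each of the 3 has a TATAAA match within 50 bases of the start given. By the RefSeq starts, that match lies before the start in Myh1 and Myh4 but after the start, inside the transcript, in Myh2. Myh1 and Myh4 share a run, TTATTTATAG, in which a MEF2 match overlaps a TATAAA match on the other strand, and the Myh2 window holds no MEF2 match. The RefSeq start of Myh1 lies 50 bases after its start in the deposited table, and that of Myh4 lies 217 bases before. By the deposited starts, the match of Myh1 therefore also lies after the start, as in Myh2. The contrast in its position thus depends on the annotation used. Of the 42 members, 32 have such a window in RefSeq, and 7 of these (21.9%) hold a MEF2 match, against 3.19% of all 32851 promoter windows. TATAAA on either strand occurred in 7 (21.9%) against 13.6%, the CArG pattern of serum response factor in 4 (12.5%) against 1.63%, and the E-box CANNTG, the kind of site that MyoD-family factors bind, in 27 (84.4%) against 72.3%. These are matches of letters only.

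Taken as shares of the 4 adult heavy chains per kilobase, Myh1 made up 67.6%, 81.0% and 71.2% in the clodrosome libraries, against 48.6%, 75.3% and 81.9% in the encapsome libraries. Myh4 made up 27.2%, 13.7% and 22.6% in the clodrosome libraries, against 47.8%, 20.1% and 13.1% in the encapsome libraries. Both shares overlapped between groups, and encapsome A stood apart through its high Myh4. The Myh2 share was 5.26%, 5.36% and 6.21% in the clodrosome libraries, against 3.60%, 4.56% and 5.04% in the encapsome libraries, without overlap, though the ratio of Myh2 to Myh1 did overlap. No test was made on these shares, because each depends on the other chains.

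**Figure D2:**
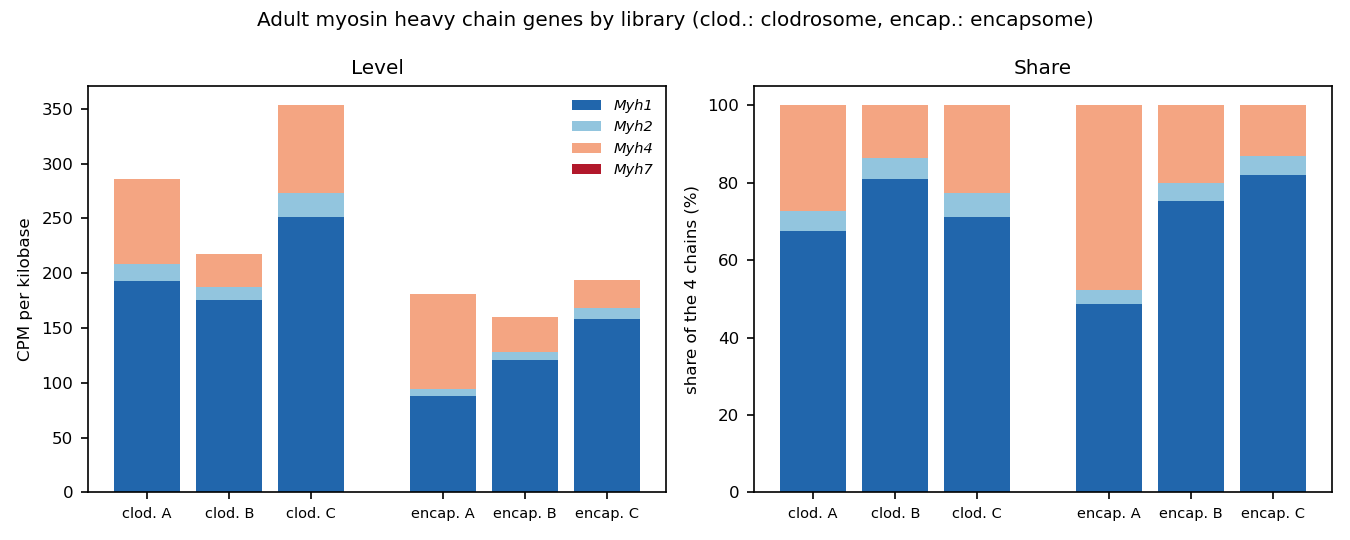
Levels of the adult myosin heavy chain genes in CPM per kilobase (left) and their shares of the sum in percent (right), one bar for each library, clodrosome on the left and encapsome on the right. The sum is 286, 217 and 353 CPM per kilobase in the clodrosome bars and 181, 160 and 193 in the encapsome bars, and the orange Myh4 segment is tallest in encapsome A.

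Mybpc2, the fast form of myosin-binding protein C that binds along the thick filament, had 161, 145 and 192 CPM in the clodrosome libraries, against 102, 73.6 and 92.2 CPM in the encapsome libraries. That was a clean separation, with a log2 fold change of 0.90 ± 0.136 (edgeR adjusted p = 0.00185). Mybpc1, named the slow form but also found in fast fibres, had 206, 207 and 274 CPM in the clodrosome libraries, against 111, 129.5 and 152 CPM in the encapsome libraries, with a log2 fold change of 0.81 ± 0.142 (edgeR adjusted p = 0.00384). Mylpf, the regulatory light chain of fast myosin, had the highest level per kilobase of the thick filament genes. It had 372, 436 and 519.9 CPM in the clodrosome libraries, against 271, 308 and 342 CPM in the encapsome libraries, without overlap, and its log2 fold change was 0.53 ± 0.131 (edgeR adjusted p = 0.0193). Myl1, the fast essential light chain, had 231, 292 and 365 CPM in the clodrosome libraries, against 216, 244 and 259 CPM in the encapsome libraries, and its log2 fold change of 0.30 ± 0.151 did not pass (edgeR adjusted p = 0.184). The slow light chains were at the limit of detection. Myl2 had 14, 4 and 9 counts in the clodrosome libraries, against 0, 14 and 4 counts in the encapsome libraries, and Myl3 had 12, 8 and 2 counts in the clodrosome libraries, against 4, 12 and 14 counts in the encapsome libraries. The calls of Myh1 and Mylpf ended when clodrosome C, encapsome A or encapsome B was left out, with edgeR adjusted p up to 0.0994 for Myh1 and 0.0698 for Mylpf.

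Among thin filament genes, 6 of the 7 tested rose, and all 7 had clodrosome libraries above encapsome libraries (median log2 fold change 0.60). Acta1, skeletal alpha-actin, was the most abundant member per kilobase of all 42. It lies at chr8:123891769-123894751 and had 1378, 1404 and 1670.4 CPM in the clodrosome libraries, against 878, 966 and 1093 CPM in the encapsome libraries. The log2 fold change was 0.60 ± 0.114 (edgeR adjusted p = 0.00546), and the means were 1484 ± 162 CPM with clodrosome and 979 ± 108 CPM with encapsome (SD, n = 3 each). The tropomyosins, which lie along actin and block or expose its myosin sites, both rose. Tpm2 had 693, 564 and 767 CPM in the clodrosome libraries, against 412, 399 and 440.1 CPM in the encapsome libraries, with a log2 fold change of 0.70 ± 0.114 (edgeR adjusted p = 0.00278). Tpm1 had 634, 642 and 749 CPM in the clodrosome libraries, against 421, 495 and 519.8 CPM in the encapsome libraries, with a log2 fold change of 0.50 ± 0.106 (edgeR adjusted p = 0.00987). Smooth muscle and other cells also use both tropomyosin genes, in other splice forms that counts per gene do not separate.

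Troponin is the calcium switch of the thin filament, made of an inhibitory, a tropomyosin-binding and a calcium-binding subunit. Tnni1, the slow inhibitory subunit, showed the largest log2 fold change of the 38 members at 1.38 ± 0.226 (edgeR adjusted p = 0.00270), from a low level. It lies at chr1:135779434-135810989 and had 4.73, 3.95 and 5.59 CPM in the clodrosome libraries, against 1.78, 1.41 and 2.32 CPM in the encapsome libraries, so even its lowest clodrosome library exceeded its highest encapsome library. Tnni2, its fast counterpart, was at a far higher level per kilobase, with 352, 371 and 443 CPM in the clodrosome libraries, against 219, 261 and 301 CPM in the encapsome libraries, also without overlap, with a log2 fold change of 0.58 ± 0.129 (edgeR adjusted p = 0.0122). Tnnt3, the fast tropomyosin-binding subunit, had 534, 492 and 645 CPM in the clodrosome libraries, against 319, 329 and 441 CPM in the encapsome libraries. It rose by a log2 fold change of 0.62 ± 0.144 (edgeR adjusted p = 0.0145), a call that ended without clodrosome C, encapsome A or encapsome B (edgeR adjusted p up to 0.0693). Tnnt1, the slow tropomyosin-binding subunit, had 3.27, 3.16 and 4.34 CPM in the clodrosome libraries, against 2.65, 2.54 and 2.21 CPM in the encapsome libraries. Its groups did not overlap, but the log2 fold change of 0.54 ± 0.194 did not pass (edgeR adjusted p = 0.0778). Tnnc2, the fast calcium-binding subunit, had 11, 3 and 2 counts in the clodrosome libraries, against 2, 0 and 2 counts in the encapsome libraries. Other genes' exons cover 74.0% of its exonic bases, where reads were not counted, so its level is not measured here.

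Of the 11 genes of giant proteins, the Z disc and the desmin network, 5 rose and 6 did not pass (median log2 fold change 0.57). Des, desmin, which links Z discs to one another and to the membrane, had the smallest p of all 38 members and the highest level per kilobase of these 11. It lies at chr1:75360329-75368579 and had 664, 708 and 762 CPM in the clodrosome libraries, against 313, 346 and 448 CPM in the encapsome libraries. The groups were far apart compared with their spread, with means of 711 ± 49.0 CPM with clodrosome and 369 ± 70.8 CPM with encapsome (SD, n = 3 each) and a log2 fold change of 0.95 ± 0.131 (edgeR adjusted p = 0.00116). Desmin is also made by smooth muscle. Tcap, which caps the ends of titin at the Z disc, had 142, 136 and 158 CPM in the clodrosome libraries, against 86.9, 87.2 and 114 CPM in the encapsome libraries, with a log2 fold change of 0.60 ± 0.115 (edgeR adjusted p = 0.00590). Both kept their calls when any 1 library was left out.

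The other 3 calls in this role ended when certain single libraries were left out. Ttn, titin, the molecular spring that spans from Z disc to M line, had 645, 406 and 824 CPM in the clodrosome libraries, against 317, 346 and 426 CPM in the encapsome libraries. Clodrosome B lay inside the encapsome range, and the log2 fold change of 0.78 ± 0.222 (edgeR adjusted p = 0.0331) lost its call without clodrosome A, clodrosome C, encapsome A or encapsome B (edgeR adjusted p up to 0.117). Myoz2, the calsarcin of slow fibres and heart, had 31.0, 44.6 and 49.0 CPM in the clodrosome libraries, against 17.6, 28.6 and 27.5 CPM in the encapsome libraries, without overlap. Its log2 fold change was 0.75 ± 0.206 (edgeR adjusted p = 0.0290), and the call ended without clodrosome B, clodrosome C, encapsome A or encapsome C (edgeR adjusted p up to 0.0978). Myot, myotilin, an actin cross-linker of the Z disc, had 99.1, 119.5 and 152 CPM in the clodrosome libraries, against 62.6, 78.5 and 93.8 CPM in the encapsome libraries, also without overlap. It rose by a log2 fold change of 0.66 ± 0.173 (edgeR adjusted p = 0.0248), a call that ended without clodrosome C, encapsome A or encapsome B (edgeR adjusted p up to 0.0834).

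The 6 that did not pass had log2 fold changes between 0.27 and 0.57. Neb, nebulin, the ruler of the thin filament, had 360.1, 245 and 457 CPM in the clodrosome libraries, against 218, 235 and 278 CPM in the encapsome libraries, with a log2 fold change of 0.54 ± 0.195 (edgeR adjusted p = 0.0779). Actn3, the fast alpha-actinin, had 124, 83.1 and 135 CPM in the clodrosome libraries, against 93.0, 57.0 and 80.1 CPM in the encapsome libraries, with a log2 fold change of 0.57 ± 0.203 (edgeR adjusted p = 0.0728). Both overlapped between groups. Actn2, the alpha-actinin of all fibres, differed by a log2 fold change of 0.43 ± 0.255 (edgeR adjusted p = 0.260), and Myoz1, the calsarcin of fast fibres, by 0.27 ± 0.157 (edgeR adjusted p = 0.249). Ldb3, a PDZ-LIM protein of the Z disc, was apart between groups, with 96.2, 105 and 148 CPM in the clodrosome libraries, against 68.02, 81.6 and 94.4 CPM in the encapsome libraries. Its log2 fold change was 0.52 ± 0.168, its edgeR adjusted p 0.0547 and its DESeq2 adjusted p 0.00624. Xirp2, an actin-binding repeat protein, had a log2 fold change of 0.53 ± 0.224 (edgeR adjusted p = 0.121), with encapsome A lowest at 81.7 CPM and clodrosome C highest at 222 CPM.

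**Figure D3:**
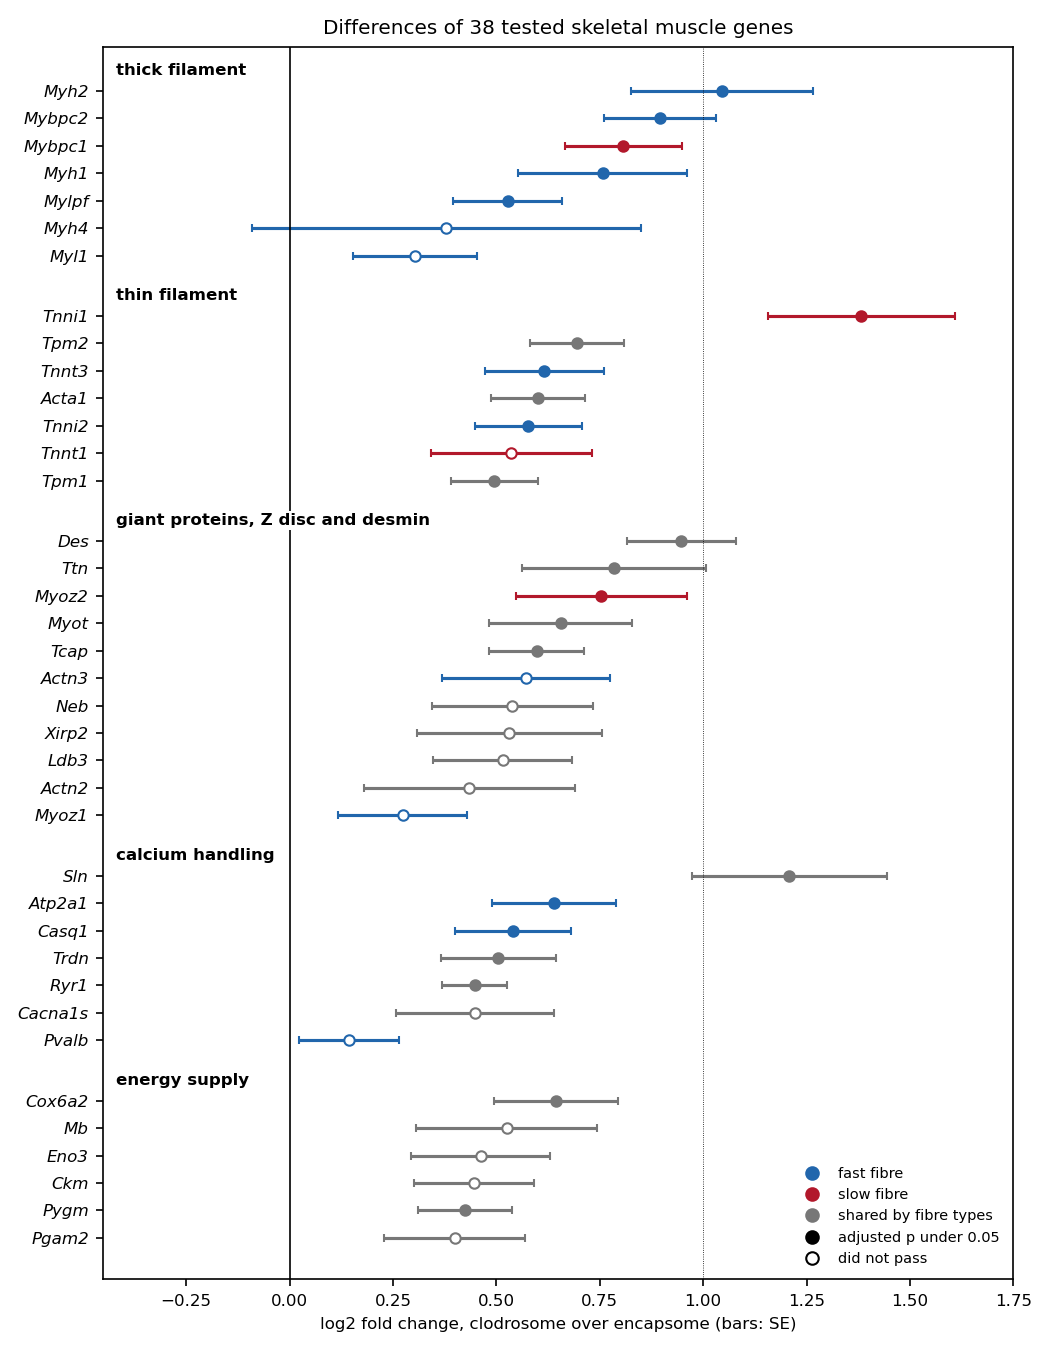
Log2 fold change of clodrosome over encapsome for the 38 tested members, by role, with bars for the SE from the edgeR fit, colours for fast fibre, slow fibre and shared genes, and filled points for an adjusted p under 0.05. Every point lies right of 0, from Pvalb at 0.14 to Tnni1 at 1.38, and 23 of the 38 are filled.

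For calcium handling, 5 of 7 genes rose, with a median log2 fold change of 0.51. Ryr1, the calcium release channel of the sarcoplasmic reticulum, had 114, 106 and 122 CPM in the clodrosome libraries, against 83.5, 79.3 and 87.9 CPM in the encapsome libraries. The difference was small but the spread smaller, with a log2 fold change of 0.45 ± 0.0782 (edgeR adjusted p = 0.00371). Sln, sarcolipin, a small membrane peptide that restrains the calcium pump, showed a far larger difference and was at 10.2, 17.4 and 21.1 CPM in the clodrosome libraries, against 7.10, 7.26 and 6.51 CPM in the encapsome libraries. Its encapsome libraries lay close together while the clodrosome libraries spread widely above them, with a log2 fold change of 1.21 ± 0.236 (edgeR adjusted p = 0.00639). Atp2a1, the fast-fibre calcium pump SERCA1, had the highest level per kilobase of the 7, with 610.2, 443 and 687 CPM in the clodrosome libraries, against 371, 341 and 406 CPM in the encapsome libraries. It rose by a log2 fold change of 0.64 ± 0.149 (edgeR adjusted p = 0.0144), a call that ended without clodrosome C or encapsome B (edgeR adjusted p up to 0.0686). Exons of other genes cover 21.9% of its exonic bases.

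Casq1, the calcium store protein of fast fibres, had 51.2, 58.1 and 74.4 CPM in the clodrosome libraries, against 39.9, 38.5 and 47.8 CPM in the encapsome libraries. Trdn, triadin, which anchors it to the release channel, had 74.7, 73.4 and 97.5 CPM in the clodrosome libraries, against 48.8, 57.0 and 67.2 CPM in the encapsome libraries. Both were apart between groups, with log2 fold changes of 0.54 ± 0.140 for Casq1 (edgeR adjusted p = 0.0228) and 0.51 ± 0.139 for Trdn (edgeR adjusted p = 0.0295). Both calls ended without clodrosome C, encapsome A or encapsome B, with edgeR adjusted p up to 0.0948 for Casq1 and 0.107 for Trdn. Cacna1s, the voltage sensor of the T tubule, had 24.3, 24.2 and 36.8 CPM in the clodrosome libraries, against 16.4, 21.1 and 24.9 CPM in the encapsome libraries, which overlapped, and its log2 fold change of 0.45 ± 0.191 did not pass (edgeR adjusted p = 0.126). Pvalb, parvalbumin, the calcium buffer of the fastest fibres, had the smallest log2 fold change of the 38. It had 59.8, 57.1 and 77.8 CPM in the clodrosome libraries, against 60.3, 53.4 and 62.4 CPM in the encapsome libraries, with a log2 fold change of 0.14 ± 0.120 (edgeR adjusted p = 0.437) that turned to -0.0086 without clodrosome C.

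Energy supply had the fewest calls of the 5 roles, 2 of 6, with a median log2 fold change of 0.45. Cox6a2, the heart and skeletal muscle form of a cytochrome c oxidase subunit, had 40.5, 44.3 and 54.4 CPM in the clodrosome libraries, against 24.1, 29.8 and 35.2 CPM in the encapsome libraries. Its groups were apart and it rose by a log2 fold change of 0.64 ± 0.149 (edgeR adjusted p = 0.0138), a call that ended without clodrosome C or encapsome B (edgeR adjusted p up to 0.0528). Pygm, muscle glycogen phosphorylase, had 158, 143 and 193 CPM in the clodrosome libraries, against 115, 120.2 and 133 CPM in the encapsome libraries. It rose by a log2 fold change of 0.42 ± 0.113 (edgeR adjusted p = 0.0256), which ended without clodrosome C, encapsome A or encapsome B (edgeR adjusted p up to 0.0958). Ckm, the muscle creatine kinase that regenerates ATP from phosphocreatine, had 266, 244 and 373 CPM in the clodrosome libraries, against 211, 206 and 230.4 CPM in the encapsome libraries. The groups did not overlap, yet the log2 fold change of 0.45 ± 0.145 just missed the threshold in edgeR (adjusted p = 0.0543) and passed in DESeq2 (adjusted p = 0.00803).

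The glycolytic enzyme Eno3, muscle enolase, had the highest level per kilobase of the 6, with 212, 262 and 338 CPM in the clodrosome libraries, against 163, 202 and 224 CPM in the encapsome libraries. Clodrosome A lay within the encapsome range, and the log2 fold change of 0.46 ± 0.168 did not pass in edgeR (adjusted p = 0.0794) but did in DESeq2 (adjusted p = 0.0141). Pgam2, muscle phosphoglycerate mutase, had a log2 fold change of 0.40 ± 0.170 (edgeR adjusted p = 0.126). Mb, myoglobin, the oxygen store, had the lowest level per kilobase of the 6, with 59.8, 72.5 and 89.5 CPM in the clodrosome libraries, against 33.5, 61.1 and 59.3 CPM in the encapsome libraries. Clodrosome A was below encapsome B, and the log2 fold change of 0.53 ± 0.218 did not pass (edgeR adjusted p = 0.117). Exons of another gene cover 31.9% of the exonic bases of Mb.

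Fast and slow fibre genes were then set apart. Of 14 fast fibre genes, 13 were tested and 8 rose, with a median log2 fold change of 0.57 and a range of 0.14 to 1.05. Of 7 slow fibre genes, 4 were tested and 3 rose, with a median of 0.78 and a range of 0.54 to 1.38. The 21 genes that both fibre types use were all tested, and 12 rose, with a median of 0.53. The fast fibre genes together held 3793 to 5426 CPM with clodrosome and 2751 to 3299 CPM with encapsome, and the slow fibre genes 246 to 334 CPM with clodrosome and 133 to 185 CPM with encapsome. Neither pair of ranges overlapped. Ratios of means were 1.52 for fast and 1.74 for slow fibre genes. The difference between the medians was not tested, and the slow sum is mostly Mybpc1, which fast fibres also use. The slow fibre genes Myh7, Myl2 and Myl3 had at most 14 counts in any of the 6 libraries. The 8 fast calls became 3 without clodrosome C, 4 without encapsome A and 3 without encapsome B, and the 12 shared calls became 7 without clodrosome C and 7 without encapsome B.

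Per kilobase, slow fibre genes made up 3.30%, 3.64% and 3.51% of fast and slow fibre genes together in the clodrosome libraries, against 2.66%, 3.20% and 3.04% in the encapsome libraries. The ranges did not overlap, but clodrosome A and encapsome B lay close. Slow-to-fast pairs of the same protein gave no single picture. The ratio of Tnni1 to Tnni2 was 0.559%, 0.443% and 0.525% in the clodrosome libraries, against 0.338%, 0.225% and 0.320% in the encapsome libraries. That of Myoz2 to Myoz1 was 48.8%, 68.1% and 50.5% in the clodrosome libraries, against 30.4%, 47.3% and 40.1% in the encapsome libraries. Both ratios were higher in every clodrosome library. The ratios of Tnnt1 to Tnnt3 (0.440% to 0.483% with clodrosome and 0.359% to 0.595% with encapsome) and of Mybpc1 to Mybpc2 (102% to 114% with clodrosome and 86.6% to 140.2% with encapsome) overlapped.

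As the whole set was higher, each member was also expressed as a percent of the members' summed CPM, as a description without a test. Most members kept about the same share, and 9 of the 38 had shares that did not overlap between groups. By CPM, a different measure, the groups were apart for 19.5% of all tested genes with clodrosome higher and for 20.7% with clodrosome lower. The 9 are therefore listed as a description only. Those with a larger share under clodrosome were Tnni1 (0.0424 ± 0.00217% with clodrosome and 0.0250 ± 0.00440% with encapsome), Myh2 (1.01 ± 0.162% with clodrosome and 0.761 ± 0.0766% with encapsome), Des (6.43 ± 0.773% with clodrosome and 5.02 ± 0.397% with encapsome) and Mybpc1 (2.05 ± 0.0836% with clodrosome and 1.79 ± 0.104% with encapsome; SD, n = 3 each). Those with a smaller share under clodrosome were Pvalb (0.579 ± 0.0114% with clodrosome and 0.808 ± 0.0850% with encapsome), Myoz1 (0.369 ± 0.0359% with clodrosome and 0.471 ± 0.00884% with encapsome), Myl1 (2.64 ± 0.415% with clodrosome and 3.28 ± 0.155% with encapsome), Pygm (1.47 ± 0.0228% with clodrosome and 1.68 ± 0.0578% with encapsome) and Ckm (2.61 ± 0.171% with clodrosome and 2.96 ± 0.182% with encapsome). In the second set, Pvalb, Myoz1 and Myl1 are listed here as fast fibre genes, and Pygm and Ckm as shared by fibre types. Among other fast fibre genes, the shares of Mylpf, Tnnt3, Tnni2 and Atp2a1 overlapped and that of Myh2 was larger. Differences between fast fibre genes in their shares were not tested.

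Further muscle genes, none of them among the 42, were listed by function. Of 33 tested genes of the sarcomere and Z disc, 22 rose and 0 fell (edgeR; 30 had an unadjusted p under 0.05, and the 1 negative log2 fold change, of Mylk4, was -0.24), with a median of 0.66. Trim63, the muscle ubiquitin ligase MuRF1, led them with 35.3, 25.3 and 28.8 CPM in the clodrosome libraries, against 13.0, 14.995 and 16.2 CPM in the encapsome libraries, with a log2 fold change of 1.02 ± 0.137 (edgeR adjusted p = 0.000970). Klhl40, a stabiliser of thin filament proteins, rose by 0.80 ± 0.126, Synpo2l by 0.74 ± 0.119 and Myom3, an M-line protein, by 0.63 ± 0.114 on the log2 scale. Of 15 tested genes of calcium release and uptake, 6 rose (median 0.46), among them Cacng1, a calcium channel subunit, by 0.86 ± 0.153 and Casq2, the slow-fibre and heart calsequestrin, by 0.76 ± 0.143. Of 16 tested energy genes, 5 rose (median 0.34), among them Cox8b by 0.72 ± 0.125, Pdk4, a kinase that holds back pyruvate use, by 0.67 ± 0.140, and Fabp3, a fatty acid carrier, by 0.53 ± 0.0960. The energy list had the smallest median of the 3, and 2 of its genes had a negative log2 fold change, the lowest -0.14. Over all tested genes, 9.41% were called higher. Of 6 further slow fibre genes, Tnnc1, slow troponin C, rose, as did Casq2, which is the same gene already counted in the calcium list. The other 4 did not pass, and 1 of them had a negative log2 fold change of -0.04.

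Genes of immature and regenerating fibres were also measured. Of 11 tested, 6 rose (median 1.119, summed 56.0 to 88.9 CPM with clodrosome and 26.6 to 36.8 CPM with encapsome). For this list and the regulators below, the share of all tested genes called higher was 9.41%. Chrna1, the acetylcholine receptor alpha subunit that spreads over immature or denervated fibres, had 20.4, 14.5 and 15.7 CPM in the clodrosome libraries, against 7.81, 5.79 and 6.47 CPM in the encapsome libraries, with a log2 fold change of 1.339 ± 0.165 (edgeR adjusted p = 0.000623). Tnnt2, the heart and embryonic muscle troponin T, rose by 1.119 ± 0.145 and Chrnb1 by 0.97 ± 0.179. Actc1 had the largest log2 fold change of the list, 2.56 ± 0.478 (edgeR adjusted p = 0.00516). It had 11.6, 5.82 and 10.6 CPM in the clodrosome libraries, against 2.87, 0.470 and 1.45 CPM in the encapsome libraries. Myh3, the embryonic heavy chain, had 12.6, 2.76 and 10.2 CPM in the clodrosome libraries, against 3.58, 1.03 and 4.03 CPM in the encapsome libraries, which overlapped and did not pass (log2 fold change 1.604 ± 0.558, edgeR adjusted p = 0.0686). Of 10 tested myogenic regulators and satellite cell genes, 5 rose (median 1.37), and 1 had a negative log2 fold change (-0.19) that did not pass. Myog, myogenin, the regulator of terminal differentiation, had 9.02, 8.78 and 7.69 CPM in the clodrosome libraries, against 3.29, 1.503 and 3.12 CPM in the encapsome libraries, with a log2 fold change of 1.70 ± 0.253 (edgeR adjusted p = 0.00169). Myod1, the muscle determination factor, rose by 1.52 ± 0.330, a call that ended without clodrosome A. Pax7, the marker of satellite cells, stood below 1 CPM in all 6 libraries and did not pass (log2 fold change 0.91 ± 0.485, edgeR adjusted p = 0.213). The difference in median between these lists and the mature genes was not tested.

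Markers of the other cell types of skin moved as well, and their part in the muscle result was not tested. Of 10 smooth muscle markers, 4 rose and 0 fell, beside 9.41% of all tested genes called higher. Of the 6 that did not pass, 3 had a negative log2 fold change, the lowest -0.50, and the list's median was 0.14. For the gene at -0.50, exons of other genes cover 67.9% of the exonic bases, where reads were not counted, so its value is uncertain. Synpo2, an actin-binding protein, rose by a log2 fold change of 0.54 ± 0.119 (edgeR adjusted p = 0.0109) and kept its call whichever library was left out. Acta2, smooth muscle actin, rose by 0.41 ± 0.109, Hspb6 by 0.71 ± 0.218 and Smtn, smoothelin, by 0.30 ± 0.0922. These 3 calls ended without clodrosome A, clodrosome C or encapsome A, that of Acta2 also without encapsome C, that of Hspb6 also without encapsome B and that of Smtn also without encapsome B or encapsome C. The defining smooth muscle myosin Myh11 stood at 61.8, 53.8 and 72.5 CPM in the clodrosome libraries, against 65.4, 61.9 and 59.0 CPM in the encapsome libraries, with a log2 fold change of 0.01 ± 0.107 (edgeR adjusted p = 0.940). The smooth muscle list summed to 531 to 706 CPM with clodrosome and 400.2 to 479 CPM with encapsome. Much of that difference lay in Hspb6, which averaged 205 CPM with clodrosome and 125 CPM with encapsome. The mean sums of the list were 604 and 452 CPM. Which cells made the RNA of Synpo2, Hspb6 and the other rising genes of this list was not tested. Their rise therefore need not be one of smooth muscle. Of 7 heart markers 5 were tested, and none passed in edgeR (1 had an unadjusted p under 0.05), with sums of 13.6 to 23.7 CPM with clodrosome and 11.1 to 17.0 CPM with encapsome. Most of that sum was Nppb, B-type natriuretic peptide, with 11.4, 21.3 and 14.4 CPM in the clodrosome libraries, against 8.68, 13.9 and 12.1 CPM in the encapsome libraries, and with a log2 fold change of 0.43 ± 0.237 (edgeR adjusted p = 0.232), while Myh6, the heart heavy chain, had at most 4 counts in any library. All 7 fibroblast markers fell (median -1.61, summed 2248 to 4305 CPM with clodrosome and 8113 to 9578 CPM with encapsome). For this and the next lists, the share of all tested genes called lower was 13.0%. Of 10 adipocyte markers 3 fell, namely Lpl, Retn and Adipoq (the call of Adipoq ended when any 1 encapsome library was left out), with sums of 2094 to 2453 CPM with clodrosome and 2535 to 2797 CPM with encapsome. Keratinocyte markers were divided, with 2 that rose, 3 that fell and 1 that did not pass. The basal genes Krt5 and Trp63 rose, by log2 fold changes of 0.66 ± 0.126 and 0.53 ± 0.0687. Krt10, Krt1 and Lor of the differentiated layers fell, with log2 fold changes of -1.36, -1.10 and -2.18. The list summed to 21986.5 to 22524 CPM with clodrosome and 15316 to 19069 CPM with encapsome, a ratio of means of 1.31. Macrophage markers summed to 491 to 1178 CPM with clodrosome and 2656 to 3183 CPM with encapsome. With TMM factors computed without the 42 members, 23 of them were again called.

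**Figure D4:**
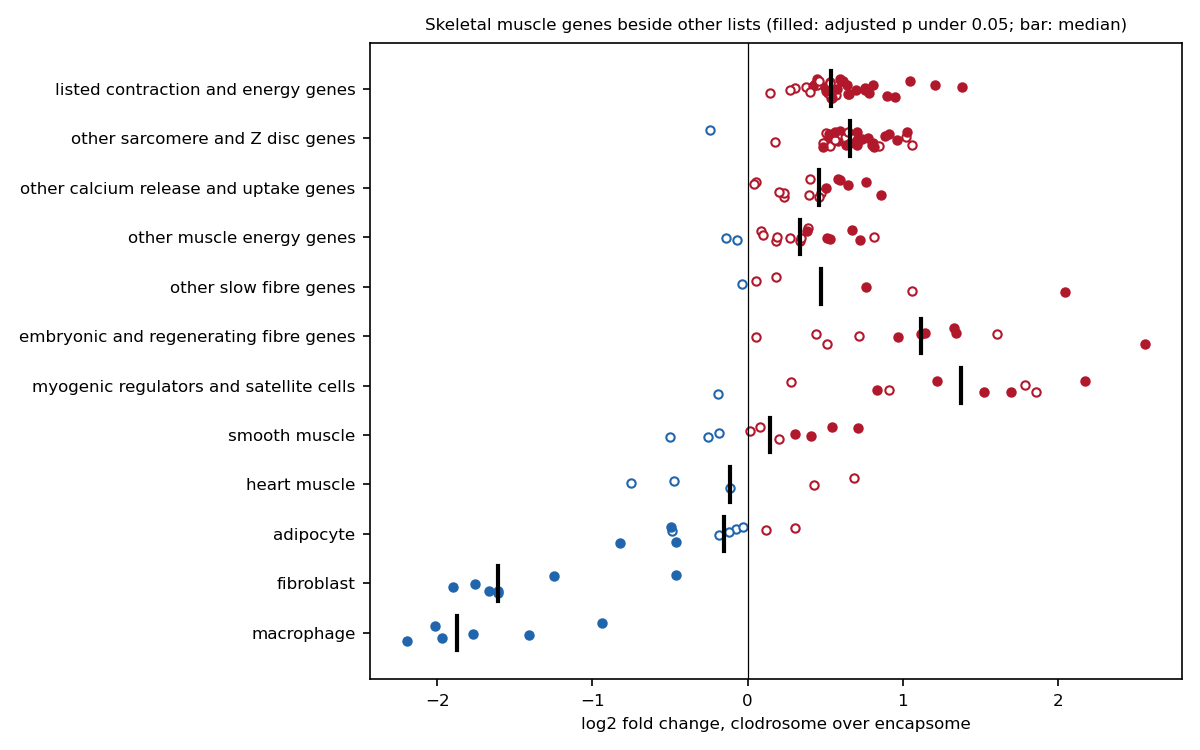
Log2 fold change of clodrosome over encapsome for each tested gene (points, red above 0 and blue below, filled for an edgeR adjusted p under 0.05) in the 42-gene set, other muscle lists and marker lists, with a black bar at each list's median. The bars of the skeletal muscle lists lie between 0.34 and 1.37, smooth muscle lies at 0.14, and the fibroblast and macrophage bars lie at -1.61 and -1.87.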

How the data were processed

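Polyadenylated RNA of whole mouse dorsal skin was measured in 6 libraries, made with a stranded mRNA kit and sequenced as paired ends, per the labels' protocols. The submitters' processing notes name DESeq2 1.34.0, featureCounts 1.6.2, StringTie 2.2.1, HISAT2 2.2.1 and Trimmomatic 0.36, with mm10. The deposited values are raw counts per gene, made by the authors with featureCounts 1.6.2 on Ensembl 102 (GRCm38), per the file headers. The command there sets no option for pairs, strand or shared reads. By that tool's defaults each read end is counted alone, strand is ignored, and reads with several places or genes are dropped, so overlapping genes and near-identical copies lose counts. Exons of other genes touch 19 of the 42 members, and cover over 20% of the exonic bases in 3 (Tnnc2, Mb and Atp2a1).

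Columns were matched to groups by name, and 0 columns of values were left unused. Symbols were found for 55141 of 55487 identifiers (99.4%). Between libraries of 1 group the chi-square per gene was 9.93 to 53.0, so no library looked deposited in duplicate. Counts were tested with edgeR 4.0.16 in R 4.3.3 (glmQLFTest, group as the only term, TMM factors of 0.982 to 1.02, filterByExpr with a minimum count of 10 and total of 15). Common biological variation was 0.125. P-values were adjusted by Benjamini-Hochberg over 17988 genes, with a threshold of 0.05. The SE is the log2 fold change divided by the root of F. The script was tested on simulated data. CPM use TMM-scaled totals, and levels of different genes were compared per kilobase of exon. Alternatives were DESeq2 1.42.0, its size factors in edgeR, TMM without the members, no low-count filter, and leaving out each library. Principal components used log2 CPM with a prior count of 2.

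The members and lists were chosen with earlier results of these data known. All members are named, and from each other list up to 4 tested genes with the smallest p. Myh3, Pax7, Myh11, Krt1, Mylk4 and the untested Myh6 and Ucp1 fall outside that rule and were named after their values were seen.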

Additional observations from a re-analysis of the deposited data

How the results depend on the processing

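The 23 member calls were 23 with DESeq2 size factors in edgeR, 23 with TMM factors computed without the members, 26 with DESeq2 and 36 without a low-count filter, where 21 of the genes shared by fibre types passed. The cause of the larger number without a filter was not tested. Leaving out each library in turn gave 12 to 26 member calls, 3 to 9 fast fibre calls, 2 to 3 slow fibre calls, 7 to 15 calls among shared genes and 2477 to 4396 calls over all genes. The median log2 fold change of the members stayed between 0.40 and 0.65. Among the genes named, the log2 fold change changed sign when a library was left out for Pvalb (-0.0086 to 0.23), Mybpc3 (-0.77 to 0.19), Ppara (-0.31 to 0.11), Myh11 (-0.10 to 0.11) and Mylk4 (-0.77 to 0.086), none of them called. No paired analysis was possible because the table's columns carry numbers that do not match those in the titles. Myh7, Myl2, Myl3 and Tnnc2 did not pass the low-count filter with all 6 libraries.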

Other observations

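Further marker lists were measured, beside 9.41% of all tested genes called higher. Higher calls made up 16.7% of nerve and Schwann cell genes and 25% of tested brown adipocyte genes, only 1 gene in each list. Of 6 nerve and Schwann cell genes, Prx, a protein of the myelin sheath of peripheral nerve, rose (log2 fold change 0.46 ± 0.127, edgeR adjusted p = 0.0301), a call that ended without clodrosome A, clodrosome C, encapsome A or encapsome C. The list's median log2 fold change was 0.29, and its sum was 95.9 to 137 CPM with clodrosome and 87.6 to 106 CPM with encapsome. Of 4 tested brown adipocyte genes, Cox8b rose, which skeletal muscle also expresses. The brown adipocyte list had a median log2 fold change of 0.38 and summed to 125 to 172 CPM with clodrosome and 93.6 to 122 CPM with encapsome. Ucp1, the defining brown fat gene, had at most 4 counts in any library. The heart muscle gene with an unadjusted p under 0.05 was Tnni3, heart troponin I, with a log2 fold change of -0.75 ± 0.279 (edgeR adjusted p = 0.0851) and 0.559 to 0.802 CPM with clodrosome against 1.07 to 1.42 CPM with encapsome.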
